A study of Mus musculus with 6 samples.

Results

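The genes described here are 10 genes of the circadian clock and its output, picked by name from the 78409 genes of the table. They are the Period genes Per1, Per2 and Per3, the PAR bZIP genes Dbp, Tef and Hlf, the REV-ERB genes Nr1d1 and Nr1d2, and the activators Bmal1 and Clock. The table held 1 row for each, and all 10 passed the filter on low counts. RNA was sequenced from hearts of 11-month-old mice, 3 with the genotype Ybx1 cardiomyocyte-specific KO (named Ybx1cmKO) and 3 littermate controls, with 1 library per heart. The sources used here do not give the driver of the recombinase, the alleles that the controls carry or the hour at which the hearts were taken. The comparison asks which heart transcripts differ when cardiomyocytes lack Ybx1, which encodes a protein that binds RNA and DNA through a cold-shock domain.

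The clock of mammalian cells is a loop of transcription and repression that takes about a day. CLOCK and BMAL1 form a dimer that binds E-boxes and activates the Period, REV-ERB and PAR bZIP genes; PERIOD proteins, with cryptochromes, then repress the dimer, and REV-ERB proteins repress Bmal1. The PAR bZIP proteins DBP, TEF and HLF bind D-boxes and carry the rhythm to output genes. In mouse tissues Bmal1 and, with a shallower rhythm, Clock are highest near lights-on and are called morning-phase genes below. The other 8 members are highest between the light phase and dusk and are called evening-phase genes.

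The libraries held 12270796 to 15141525 counts. Ybx1 was at 851, 813 and 898 normalised CPM in controls 1, 2 and 3, against 203, 172 and 110.02 CPM in knockouts 1, 2 and 3 (log2 fold change -2.40, edgeR adjusted p = 0.148). CPM are counts scaled to a common library total, here also by TMM factors unless stated. Cardiomyocyte markers were abundant, with 8 markers summing to 17876 to 20410 CPM in the controls, against 15034 to 18135 CPM in the knockouts, while the skeletal muscle myosins Myh4 and Myh1 were at or near 0. Knockout heart 3 stood apart in its composition, where mitochondrial rRNA made up 10.7% of the library, against 20.5% to 26.3% in the other 5. It also had the least of the nuclear RNA Malat1 (668 deposited CPM), and control heart 2 the most (7923). Control heart 2 had the lowest TMM factor (0.806) and knockout heart 3 the highest (1.191). This scaling raises levels in the first and lowers them in the second. Control heart 1 and knockout heart 3 expressed Xist and the other 4 hearts the Y-linked gene Ddx3y, so each group held 1 female and 2 male hearts.

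Most evening-phase genes had lower means and both morning-phase genes higher means in the knockout hearts, and no single gene passed the test over all genes. Of the 8 evening-phase genes 7 lay below 0 on the log2 scale (6 when libraries were scaled by their totals alone, since Per1 turned). Their median was -0.57, while that of Bmal1 and Clock was 0.31 (0.18 without knockout library 1) and that of all 13717 tested genes 0.011. In Per2, Per3, Dbp, Tef, Hlf and Nr1d2, 6 of the 10 members, each knockout heart lay below each control heart, as did 5.82% of all tested genes. No member lay wholly above the controls, as 6.26% of tested genes did. With libraries scaled by their totals alone the groups of Dbp, Hlf and Nr1d2 overlapped, and those of Per2, Per3 and Tef did not. The share of all tested genes without overlap was not counted on that scale. By edgeR's quasi-likelihood test 0 of the 10 members and 0% of all tested genes passed a Benjamini-Hochberg adjusted p of 0.05 over all tested genes, and the smallest adjusted p of a member was 0.694. At an unadjusted edgeR p under 0.05 there were 5 members, Hlf, Per3, Tef, Per2 and Dbp, all lower in knockout, beside 5.14% of tested genes at that threshold, 2.45% lower and 2.69% higher. DESeq2 also called 0 of the 10 and gave the same number, 5, at an unadjusted p under 0.05. The share of all tested genes at that threshold was not counted for DESeq2.

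**Figure D1:**
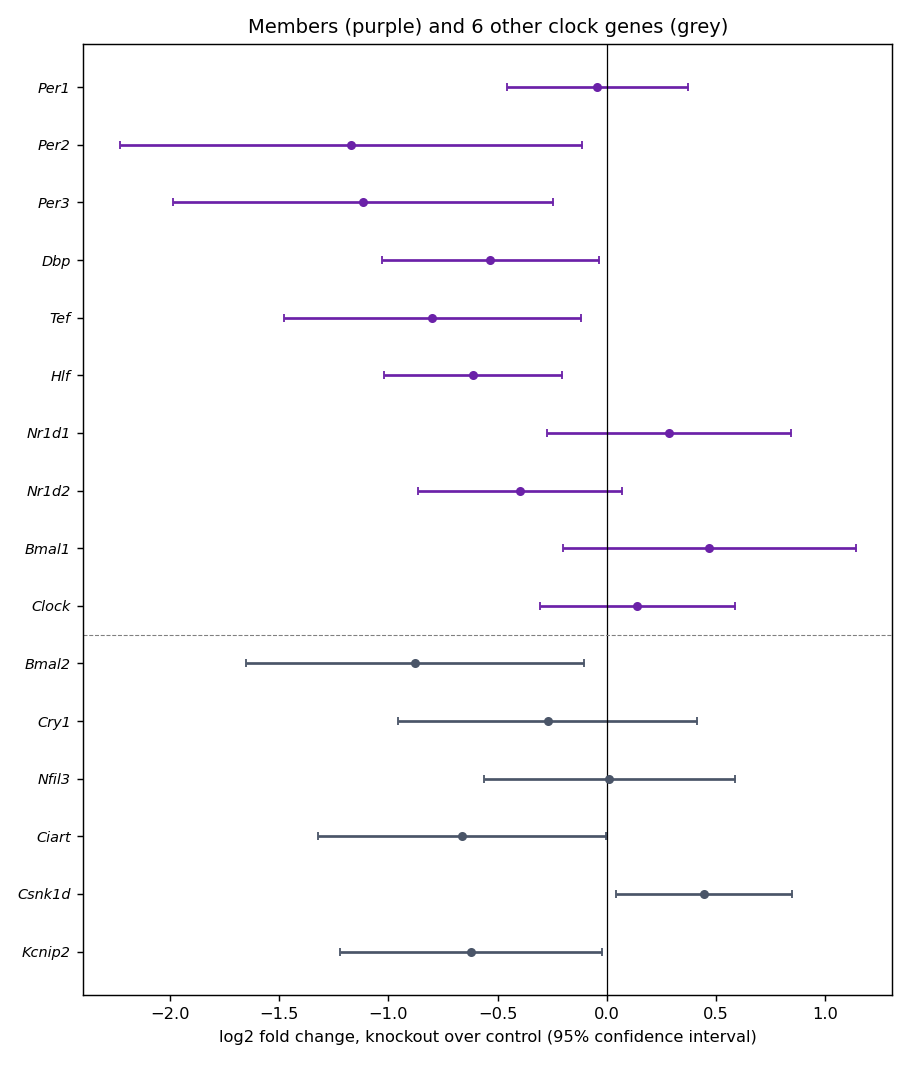
Log2 fold change of knockout over control hearts (horizontal axis) with its 95% confidence interval from edgeR, for the 10 members in purple and 6 other clock genes described below in grey. The intervals of Per2, Per3, Dbp, Tef and Hlf lie below 0, and those of Per1, Nr1d1, Nr1d2, Bmal1 and Clock include it.

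The summed markers of 2 other cell types were higher in each knockout heart than in any control heart, narrowly for fibroblasts, and no marker passed the test. All 5 macrophage markers lay higher in knockout, with a summed level of 46.2 to 59.2 CPM in the controls, against 64.6 to 70.9 CPM in the knockouts, and so did all 5 fibroblast markers (585 to 677 CPM and 679 to 863 CPM). In the other 7 marker lists the summed levels of the groups overlapped. Among these, all 3 erythroid and 4 of 5 endothelial markers lay higher, and 4 of 5 smooth muscle and pericyte markers lower. Of the 8 cardiomyocyte markers 5 lay lower. None of the macrophage or fibroblast markers and 1 of the cardiomyocyte markers, Myh6, had an unadjusted edgeR p under 0.05. Their part in the levels of the clock genes was not tested, and in bulk heart RNA fewer cells of a type and less RNA per cell cannot be told apart.

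The Period genes split, with Per2 and Per3 lower in knockout and Per1 level between the groups. Per1 (ENSMUSG00000020893, chromosome 11), which besides the clock responds to hormones and cyclic AMP, was at 74.3, 82.97 and 62.6 CPM in controls 1, 2 and 3, against 75.5, 70.3 and 67.7 CPM in knockouts 1, 2 and 3. The groups overlapped, and the highest heart had 1.32 times the lowest, the narrowest range of the 10 genes. The log2 fold change of Per1 was -0.042 (95% confidence interval -0.46 to 0.37), above 0 when libraries were scaled by their totals alone (0.13), where the median of all genes was 0.17.

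Per2 (ENSMUSG00000055866, chromosome 1), a scaffold of the repressor complex, was at 30.9, 75.5 and 27.5 CPM in the controls, against 25.8, 23.9 and 9.78 CPM in the knockouts. Control heart 2 was far above and knockout heart 3 far below the other 4, which lay within a narrow band. The TMM factors widen that gap, and these hearts were also the highest and lowest with libraries scaled by their totals alone. The knockout mean was 44.4% of the control mean (44.6 ± 26.8 and 19.8 ± 8.76 CPM, SD, n = 3 each). For Per2 the log2 fold change was -1.17 (interval -2.23 to -0.11, edgeR unadjusted p = 0.0339), and -0.57 without control library 2.

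Per3 (ENSMUSG00000028957, chromosome 4), a paralogue that is not needed for the rhythm itself, was at 18.7, 45.3 and 21.03 CPM in the controls, against 13.2, 17.4 and 8.62 CPM in the knockouts. Control heart 2 was again the highest and knockout heart 3 the lowest. For Per3 it was -1.12 (interval -1.99 to -0.25, edgeR unadjusted p = 0.0176), and -0.62 without control library 2. Without a filter on low counts, where edgeR called 0.217% of 33251 genes lower, Per2 and Per3 were called (adjusted p = 0.00413 and 0.00838).

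**Figure D2:**
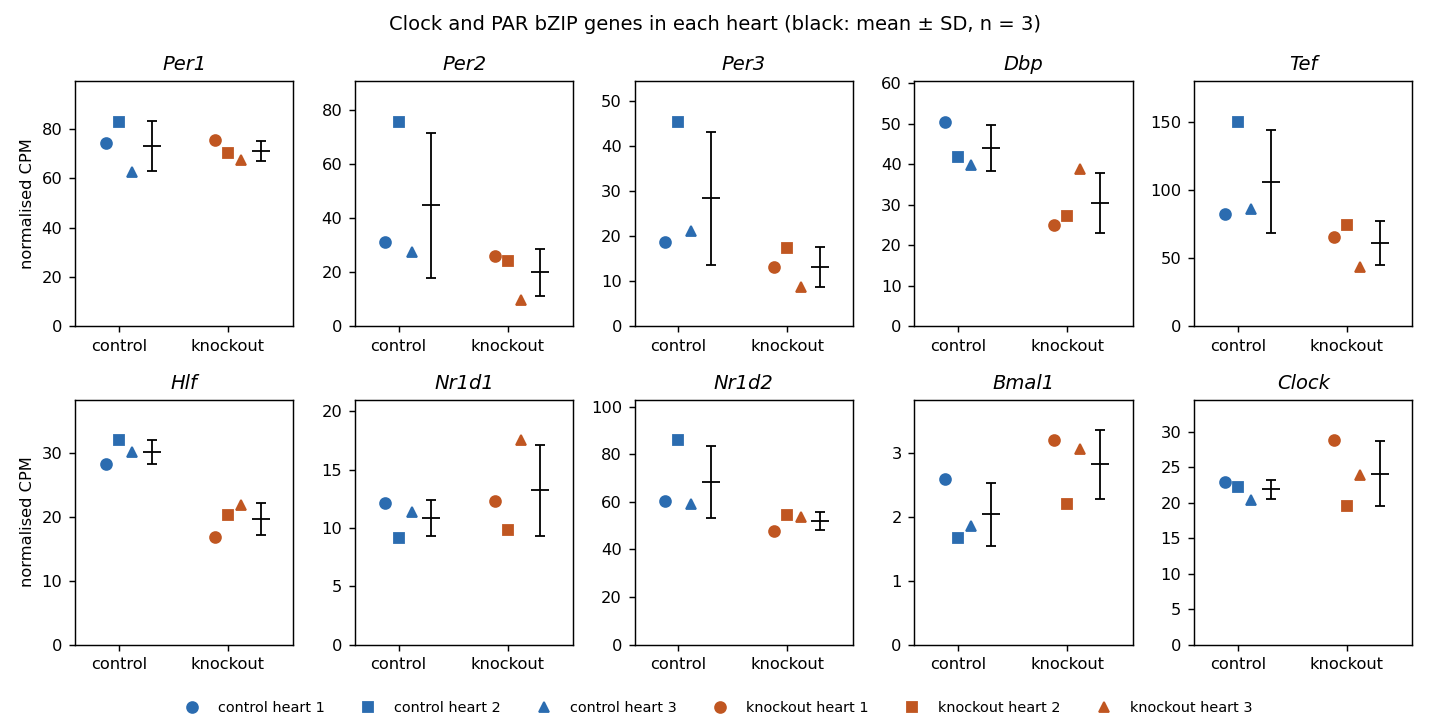
Normalised CPM (vertical axes, from 0) of the 10 members in each of the 6 hearts, control in blue and knockout in orange, with circles, squares and triangles for hearts 1, 2 and 3 and black bars for mean ± SD (n = 3). Control heart 2 stands above the other hearts in Per2, Per3 and Tef, while the 3 control values of Hlf lie between 28.2 and 32.0 CPM, above all knockout values.

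With TMM factors the PAR bZIP genes were lower in every knockout heart than in any control heart. With libraries scaled by their totals alone this held for Tef only. Hlf (ENSMUSG00000003949, chromosome 11), hepatic leukaemia factor, was at 28.2, 32.0 and 30.1 CPM in the controls, against 16.9, 20.3 and 21.8 CPM in the knockouts. It had little spread within either group (30.1 ± 1.87 and 19.7 ± 2.55 CPM, SD, n = 3 each), and the knockout mean was 65.3% of the control mean. For Hlf the log2 fold change was -0.61 (SE 0.18, interval -1.02 to -0.21, edgeR unadjusted p = 0.008), and it lay between -0.70 and -0.52 with each library left out in turn, with an unadjusted p under 0.05 in all 6 of these fits. With libraries scaled by their totals alone Hlf was at -0.45 (edgeR unadjusted p = 0.12), and limma-trend gave an unadjusted p of 0.106 with either pseudocount.

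Dbp (ENSMUSG00000059824, chromosome 7), the D-box binding protein whose transcript has one of the deepest rhythms in mouse tissues, was at 50.5, 41.7 and 39.9 CPM in the controls, against 25.1, 27.2 and 38.8 CPM in the knockouts. Knockout hearts 1 and 2 were well below the controls, and knockout heart 3 was just below control heart 3. The knockout mean was 69.0% of the control mean (log2 fold change -0.53, SE 0.22, interval -1.03 to -0.035, edgeR unadjusted p = 0.0385). That p was under 0.05 in 1 of the 6 fits that each left out a library, the one without knockout library 3, and reached 0.144 in the others. It was 0.27 with libraries scaled by their totals alone and 0.222 in limma-trend. In GENCODE M21, 18.0% of the exonic bases of Dbp overlap Sphk2 on the other strand, and the strand setting of the counting was not given in the sources used here, so the level of Dbp is uncertain by an amount not measured here. Sphk2 was at 1.93 to 4.82 deposited CPM in the 6 libraries.

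Tef (ENSMUSG00000022389, chromosome 15), thyrotroph embryonic factor, was at 82.5, 150.0 and 85.8 CPM in the controls, against 65.4, 74.3 and 43.2 CPM in the knockouts. As with Per2 and Per3, control heart 2 was the highest and knockout heart 3 the lowest. The knockout mean was 57.5% of the control mean (log2 fold change -0.80, SE 0.30, interval -1.48 to -0.12, edgeR unadjusted p = 0.0265), and the log2 fold change was -0.48 without control library 2.

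Tef and Per3 had the same order of levels over the 6 hearts, and their promoters are shown beside that of Per1, whose level was steady. Promoters were read from RefSeq on GRCm38.p6, which is not the mm39 build of the counts, as the 250 bases before each annotated start on the strand of the gene. The table held 9 of the 10 members; Per2 is named without a sequence. Capitals mark the E-box CACGTG and the D-box TTANGTAA, searched on both strands; the 2 motifs do not overlap each other.
Per3, chr4:151044666-151044915, minus strand: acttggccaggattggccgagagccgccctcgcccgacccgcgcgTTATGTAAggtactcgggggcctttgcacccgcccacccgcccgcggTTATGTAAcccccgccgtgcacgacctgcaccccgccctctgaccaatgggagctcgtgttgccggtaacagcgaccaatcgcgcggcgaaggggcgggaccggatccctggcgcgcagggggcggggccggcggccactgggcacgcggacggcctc
Tef, first start, chr15:81802423-81802672, plus strand: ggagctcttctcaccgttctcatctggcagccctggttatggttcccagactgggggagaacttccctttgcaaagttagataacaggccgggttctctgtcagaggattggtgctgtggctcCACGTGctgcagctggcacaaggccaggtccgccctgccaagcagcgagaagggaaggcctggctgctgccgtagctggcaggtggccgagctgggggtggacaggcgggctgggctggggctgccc
Tef, second start, chr15:81811164-81811413, plus strand: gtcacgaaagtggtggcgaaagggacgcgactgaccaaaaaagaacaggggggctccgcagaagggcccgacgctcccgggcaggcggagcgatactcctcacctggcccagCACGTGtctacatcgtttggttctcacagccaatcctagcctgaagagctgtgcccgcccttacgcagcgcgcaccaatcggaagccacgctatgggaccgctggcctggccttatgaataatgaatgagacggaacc
Per1, chr11:69098699-69098948, plus strand: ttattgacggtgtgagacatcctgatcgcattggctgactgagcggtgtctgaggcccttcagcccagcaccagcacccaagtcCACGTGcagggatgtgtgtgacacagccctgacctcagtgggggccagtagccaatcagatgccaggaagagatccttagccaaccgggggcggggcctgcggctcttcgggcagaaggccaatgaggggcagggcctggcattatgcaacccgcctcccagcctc
The Per3 window holds 2 D-boxes, which begin 205 and 158 bases before the start, and no E-box by these letters. Each Tef window holds 1 E-box, 127 and 138 bases before its start, and the Per1 window holds 1 E-box 166 bases before its start. Of 32851 promoter windows of the same length in the table, 6.02% held the E-box letters, 2.06% the D-box letters and 0.073% at least 2 D-boxes. The second Per1 window and those of Dbp, Hlf, Nr1d1, Nr1d2, Bmal1 and Clock held neither motif. A match of letters is a description of the sequence and not a binding site.

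Neither REV-ERB gene had an unadjusted p under 0.05. Nr1d2 (ENSMUSG00000021775, chromosome 14), which encodes REV-ERB beta, was at 60.3, 85.9 and 58.97 CPM in the controls, against 47.7, 54.5 and 53.7 CPM in the knockouts. Each knockout heart was below each control heart, but not with libraries scaled by their totals alone. The log2 fold change of Nr1d2 was -0.40 (interval -0.86 to 0.070, edgeR unadjusted p = 0.0864), and -0.21 without control library 2. Nr1d1 (ENSMUSG00000020889, chromosome 11), which encodes REV-ERB alpha, was at 12.1, 9.15 and 11.3 CPM in the controls, against 12.3, 9.86 and 17.5 CPM in the knockouts. The groups overlapped in Nr1d1, and knockout heart 3 was the one high value.

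The log2 fold change of Nr1d1 was 0.28 (interval -0.28 to 0.84, edgeR unadjusted p = 0.279), 0.026 without knockout library 3 and 0.44 without knockout library 2. Nr1d1 shares 8.5% of its exonic bases with Thra, the thyroid hormone receptor alpha gene on the other strand, so its level is uncertain by an amount not measured here. Thra was at 33.3, 30.1 and 31.1 CPM in the controls, against 27.9, 24.4 and 21.5 CPM in the knockouts, lowest in knockout heart 3 where Nr1d1 was highest. In deposited CPM, without TMM factors, Thra was lowest in knockout heart 2 (21.98, against 25.6 in knockout heart 3), and its groups overlapped.

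The morning-phase activators lay above 0, with groups that overlapped. Bmal1 (ENSMUSG00000055116, chromosome 7), which encodes the partner of CLOCK, was at 2.59, 1.66 and 1.86 CPM in the controls, against 3.19, 2.20 and 3.06 CPM in the knockouts. Knockout hearts 1 and 3 were the highest, and knockout heart 2 lay below control heart 1. These levels rest on 18 to 55 counts per library, so that the exact Poisson 95% interval ran from 0.986 to 2.63 CPM in control heart 2 and from 2.35 to 4.25 CPM in knockout heart 1; such intervals cover counting error alone. Bmal1 had a log2 fold change of 0.47 (SE 0.30, interval -0.20 to 1.14, edgeR unadjusted p = 0.147), and it lay between 0.34 and 0.66 with each library left out in turn.

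Clock (ENSMUSG00000029238, chromosome 5), which encodes the other partner of the dimer, was at 22.97, 22.3 and 20.4 CPM in the controls, against 28.8, 19.6 and 23.96 CPM in the knockouts. Knockout heart 1 was the highest and knockout heart 2 the lowest of the 6. Clock had a log2 fold change of 0.14 (interval -0.31 to 0.59, edgeR unadjusted p = 0.492) and -0.0063 without knockout library 1, with 0.26 without knockout library 2. The exact two-sided permutation p of 3 against 3 hearts was 0.1, the smallest it can give, for each of the 6 members whose groups did not overlap, and 0.2 to 0.9 for the other 4.

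Per kilobase of merged exons in GENCODE M21, the evening-phase genes of the control hearts ranged from 14.7 ± 1.90 CPM for Dbp down to 2.95 ± 1.53 CPM for Per3 (SD, n = 3). Dbp, Tef (13.5 ± 4.84), Per1 (13.01 ± 1.81) and Nr1d2 (12.6 ± 2.81) came first and overlapped in their control values. Per2, at 7.62 ± 4.57, overlapped Tef, Per1 and Nr1d2 above it and Hlf below it. Hlf followed at 4.51 ± 0.280, then Nr1d1 at 3.53 ± 0.503 and Per3. The values of Nr1d1 and of Hlf did not overlap, and those of Per3 spanned both. Clock was at 1.59 ± 0.0956 and Bmal1 at 0.271 ± 0.0649 CPM per kilobase, below all evening-phase genes and apart from each other. This order assumes that reads cover the merged exons evenly, which was not tested.

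Across single hearts the evening-phase and morning-phase means lay on opposite sides of 0 in 4 of the 6 hearts. The mean deviation of the 8 evening-phase genes from their 6-heart means, on the scale of log2(CPM + 0.5), was 0.14, 0.59 and 0.070 in controls 1, 2 and 3, against -0.25, -0.17 and -0.38 in knockouts 1, 2 and 3, so the groups did not overlap. The same deviation of Bmal1 and Clock was 0.058, -0.22 and -0.22 in the controls, against 0.35, -0.15 and 0.19 in the knockouts, which overlapped. Evening-phase minus morning-phase deviations were 0.082, 0.81 and 0.29 in the controls, against -0.59, -0.018 and -0.57 in the knockouts. Control heart 2 and knockout hearts 1 and 3 were the far ends, and control heart 1 and knockout heart 2 lay close to each other.

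**Figure D3:**
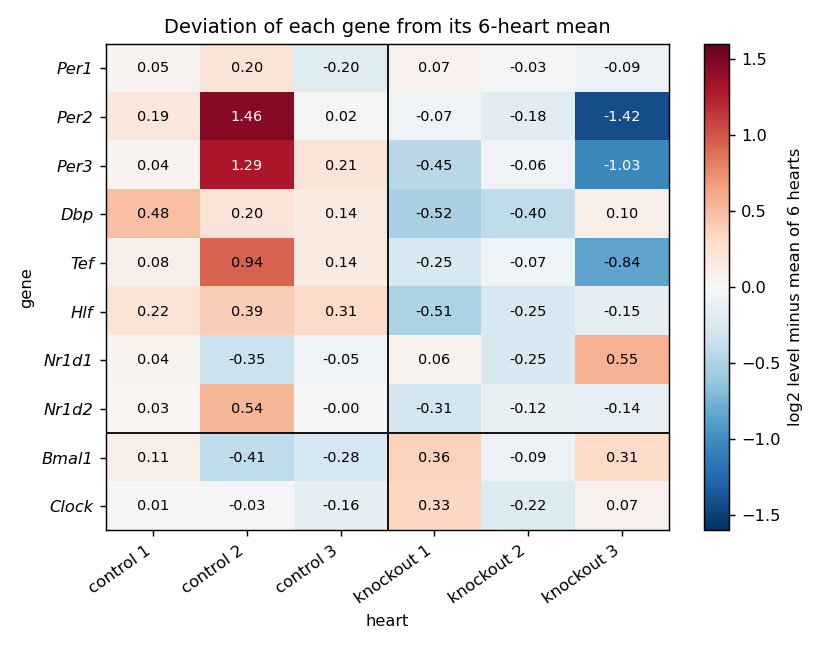
Deviation of each member (rows) in each heart (columns) from its mean over the 6 hearts, in log2(CPM + 0.5), red above and blue below; the vertical line parts control from knockout and the horizontal line evening-phase from morning-phase genes. Per2, Per3 and Tef are extreme in control heart 2 (1.46, 1.29 and 0.94) and knockout heart 3 (-1.42, -1.03 and -0.84), while Dbp and Hlf are lowest in knockout heart 1.

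Control heart 2 and knockout heart 3 were left out together after their values were seen, and that choice fixes part of what follows. They are the extremes of Per2, Per3 and Tef, and knockout heart 3 is the highest knockout for Dbp and Hlf, so the values below are a description. The remaining hearts are 1 female and 1 male control and 2 male knockouts. Dbp had a log2 fold change of -0.79 and Hlf of -0.65 in these 4 hearts. The 2 hearts left out were also those with the most and the least Malat1 (7923 and 668 deposited CPM). They had the lowest and highest TMM factors (0.806 and 1.191) as well. The part of either in these values was not tested. Per2 was at -0.23, Per3 at -0.38 and Tef at -0.27, and Nr1d1 turned from 0.28 to -0.080. With these 4 hearts 2 members had an unadjusted p under 0.05, beside 1.88% of all tested genes lower at that threshold, and 0 passed an adjusted p of 0.05. With sex as a term in the edgeR fit, also chosen after the data were seen, 5 members were lower at an unadjusted p under 0.05. Of all tested genes 5.14% were lower at that threshold in this fit, against 2.45% in the main fit. With the sex term 0 members passed the adjusted threshold.

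**Figure D4:**
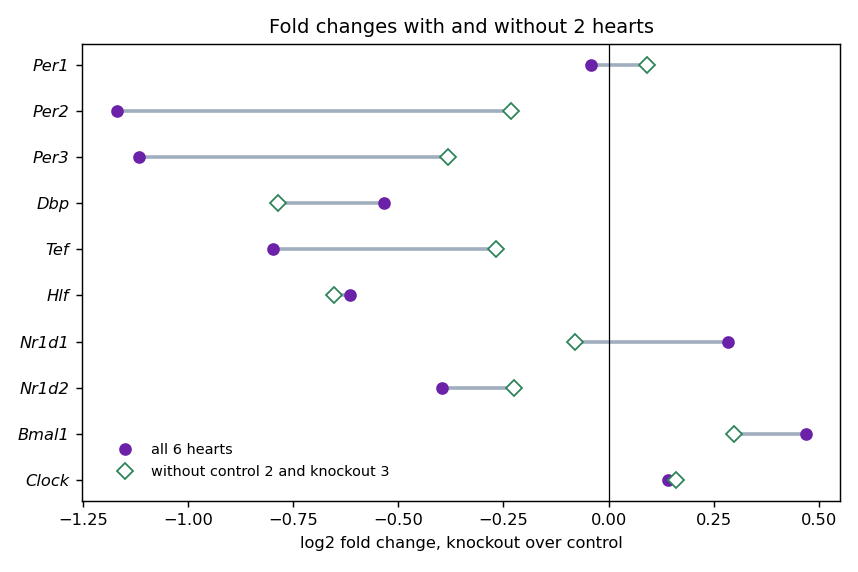
Log2 fold change of knockout over control (horizontal axis) for the 10 members with all 6 hearts (filled circles) and without control heart 2 and knockout heart 3 (open diamonds). Per2, Per3 and Tef move towards 0, and Dbp and Hlf stay below -0.5.

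Ratios of counts within a library do not depend on how libraries are scaled, and 8 such ratios were taken inside the families. Per1 exceeded Per2 by 2.40, 1.10 and 2.27 times in controls 1, 2 and 3, against 2.92, 2.94 and 6.91 times in knockouts 1, 2 and 3. The ratio of Per1 to Per3 was 3.97, 1.83 and 2.98 in the controls, against 5.73, 4.05 and 7.85 in the knockouts. In both ratios the groups did not overlap (exact two-sided permutation p = 0.1 for each, the smallest possible, and 0.4 after Benjamini-Hochberg adjustment over the 8 ratios).

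The ratio of Per2 to Per3 kept between 1.14 and 1.96, and that of Dbp to Hlf between 1.30 and 1.79, the narrowest of the 8, with groups that overlapped. Nr1d1 to Nr1d2 was 0.201, 0.106 and 0.192 in the controls, against 0.258, 0.181 and 0.326 in the knockouts, and the groups overlapped (exact two-sided permutation p = 0.3, adjusted 0.6). Dbp to Tef ranged more, from 0.278 in control heart 2 to 0.898 in knockout heart 3. The ratio of Bmal1 to Clock was 0.112, 0.0747 and 0.0909 in the controls, against 0.111, 0.112 and 0.128 in the knockouts, with an overlap between the groups.

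**Figure D5:**
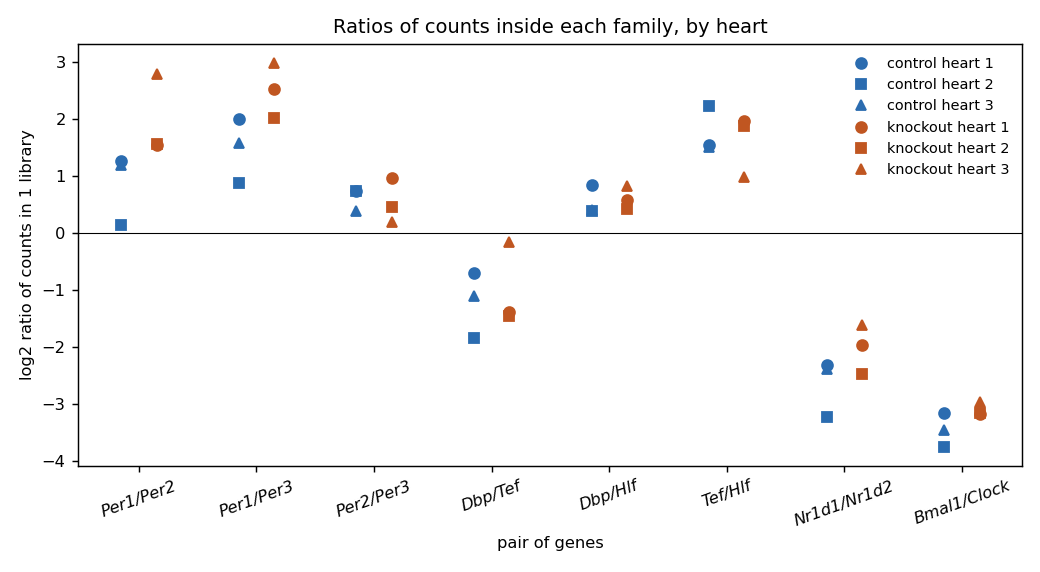
Log2 ratio of the counts of 2 genes of a family in the same library (vertical axis) for 8 pairs, control in blue and knockout in orange, with circles, squares and triangles for hearts 1, 2 and 3. The groups are apart in Per1/Per2 and Per1/Per3 and overlap in the other 6 pairs.

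Over the 6 hearts, 45 pairs of members were compared on log2(CPM + 0.5). Of the 28 pairs of evening-phase genes 22 had a Pearson r above 0, and of the 16 pairs of an evening-phase with a morning-phase gene 13 had an r below 0. The 6 evening-phase pairs below 0 all held Nr1d1, from -0.34 with Hlf to -0.87 with Tef, while Nr1d1 with Dbp was at 0.11. With Bmal1 and Clock, Nr1d1 had an r above 0 (0.76 and 0.43). Tef with Nr1d1 was at -0.093 without control heart 2 and knockout heart 3. The closest pair was Per3 with Tef (r = 0.995, exact permutation p = 0.00278; Spearman rho = 1, exact permutation p = 0.00278; each 0.125 after Benjamini-Hochberg adjustment over the 45 pairs), and r was 0.978 without control heart 2 and knockout heart 3. Per3 and Bmal1 were the most opposed (r = -0.87, exact permutation p = 0.0139, adjusted 0.167; rho = -0.89, exact permutation p = 0.0333, adjusted 0.146), with r = -0.89 without those hearts.

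Per2 with Tef gave r = 0.981 (exact permutation p = 0.0167, adjusted 0.167; rho = 0.886, exact permutation p = 0.0333, adjusted 0.146), and 0.582 without control heart 2 and knockout heart 3, so that relation rests on these hearts. No pair passed an adjusted p of 0.05. A group holds 3 hearts, too few for a correlation within it, and differences between the groups enter each of these values.

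The wider clock, 25 genes by role, had no shared direction. Of its 23 tested genes 12 lay below and 11 over 0 (median -0.019 on the log2 scale), and 0 passed edgeR's adjusted p of 0.05. At an unadjusted edgeR p under 0.05, 3 were lower and 1 higher, beside 2.45% and 2.69% of all tested genes. Among the activators, Bmal2, a paralogue of Bmal1, was at 1.94, 2.96 and 2.39 CPM in the controls, against 1.43, 1.67 and 0.890 CPM in the knockouts (log2 fold change -0.88, edgeR unadjusted p = 0.0305), with no overlap. Npas2, which can stand in for Clock, was at 0.400 ± 0.153 and 0.634 ± 0.190 CPM (SD, n = 3 each) and was not tested, being under the filter.

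Ciart, a repressor of the CLOCK and BMAL1 dimer that peaks with the evening-phase genes, was at 14.2, 9.42 and 10.3 CPM in the controls, against 6.12, 10.2 and 5.23 CPM in the knockouts (-0.66, edgeR unadjusted p = 0.0495). Its groups overlapped, since knockout heart 2 lay above control heart 2, and its log2 fold change was -1.01 without knockout library 2. Of the cryptochromes, the repressors that act with PERIOD proteins, Cry1, a late-phase gene, was at 5.19 ± 0.502 and 4.33 ± 1.70 CPM (-0.27, edgeR unadjusted p = 0.394, with -0.62 without knockout library 2 and -0.027 without knockout library 3). Nfil3, the repressor that competes for D-boxes with the PAR bZIP proteins, was at 2.83 ± 0.329 and 2.84 ± 0.403 CPM (0.012, interval -0.56 to 0.59).

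Csnk1d, casein kinase 1 delta, which marks PERIOD proteins for degradation, was at 9.63, 10.5 and 8.62 CPM in the controls, against 13.1, 12.1 and 13.95 CPM in the knockouts. It had the smallest p of its class of 9 kinases, ligases and partners, 8 of them tested. Its log2 fold change was 0.45 (SE 0.18, edgeR unadjusted p = 0.0341), and each knockout heart was above each control heart. Kcnip2, a potassium channel subunit whose level follows the clock in mouse ventricle, was at 31.4, 27.6 and 34.6 CPM in the controls, against 12.8, 25.4 and 22.7 CPM in the knockouts (-0.62, interval -1.22 to -0.023, edgeR unadjusted p = 0.0435). The groups of Kcnip2 did not overlap, except with libraries scaled by their totals alone, and its log2 fold change was -0.38 without knockout library 1.

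Genes induced by glucocorticoids, hormones that also act on Per1, were measured beside the clock. Of 8 such genes 4 lay over and 4 below 0, and 1, the metallothionein Mt2, was at an unadjusted edgeR p under 0.05, where 5.14% of all tested genes were. Mt2 was at 19.2, 31.8 and 41.0 CPM in the controls, against 82.1, 83.7 and 34.1 CPM in the knockouts (1.12, edgeR unadjusted p = 0.0183), with groups that overlapped at knockout heart 3. Errfi1, a feedback inhibitor of the EGF receptor, was at 28.4, 21.8 and 24.01 CPM in the controls, against 56.4, 26.4 and 29.9 CPM in the knockouts (0.60, edgeR unadjusted p = 0.0736, and 0.19 without knockout library 1). Zbtb16, a zinc finger repressor named here after its values were seen, was at 43.03, 184 and 122.7 CPM in the controls, against 51.4, 79.2 and 13.01 CPM in the knockouts, highest in control heart 2 and lowest in knockout heart 3 as Per2 was. Fkbp5, another of the 8 and also named after its values were seen, was highest in control heart 2 (46.5 CPM) and lowest in knockout heart 3 (7.84 CPM). Unlike Per2, it was at 44.8 CPM in knockout heart 1, above controls 1 and 3 (20.5 and 36.4 CPM). None of the others of the 8 had both extremes in these hearts.

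Among 11578 other protein-coding genes, Dzip3, Hey1 and ENSMUSG00000121808 followed Dbp most closely over the 6 libraries (Pearson r = 0.988, 0.985 and 0.972), and Arf3, Cdc42se1 and Tbxas1 followed Bmal1 (0.989, 0.988 and 0.988). An r above 0.9 was reached by 31 genes with Dbp, by 190 with Bmal1 and by 1081 with Per2, a comparison with Per2 that was added after its values were seen. The closest to Per2 were Miga2, Preb and Srsf6 (0.999, 0.996 and 0.996). All these values share the same 6 libraries and the same scaling.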

How the data were processed

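Polyadenylated RNA of 6 hearts, 3 per group, was measured. Per the labels' protocols, TRIzol RNA was primed with anchored oligo(dT), made double-stranded, tagmented and amplified. Per the submitters' processing notes the tools include edgeR 4.0.16, Subread 2.1.1, featureCounts, STAR 2.7.11 and SAMtools 1.22.1, in no stated order, on build mm39. The authors' deposited estimated counts held fractions in 21.3% to 22.7% of the genes detected in a library, and the authors' deposited CPM were these counts over the sum of their column, on the usual CPM scale.

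Counts were rounded to whole numbers, scaled by TMM factors and tested with edgeR 4.0.16's quasi-likelihood test in R 4.3.3, two-sided, for the 13717 genes that reached a deposited CPM of 1 in 3 or more libraries. Adjusted p-values are Benjamini-Hochberg values over all these genes, SEs come from the F statistic, and the fit was tested on simulated data. There it called 29% of 100 genes changed 2-fold and 92% of 100 changed 4-fold, so most 2-fold differences were missed in those data. In the hearts Ybx1 itself was not called (log2 fold change -2.40, edgeR adjusted p = 0.148), nor was any other gene. Whether the 29% and 92% hold for the hearts was not tested. DESeq2 1.42.0, limma 3.58.1 and the other alternatives are in the closing section, and exact permutation tests used SciPy 1.17.1. The labels name separate hearts but not litters or cages. The edgeR p-values set the difference between the groups against the spread between these hearts. No 2 libraries agreed within sampling noise. All members were named. Other clock genes were named where they had the smallest p of their class, or as morning-phase partners, and like genes by the highest r. The result of 1 gene that this rule names is not reported here. The members, lists and arms were chosen with earlier results of these data known. Exon lengths and overlaps came from GENCODE M21 (GRCm38) by gene ID, which held all 10 members.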

Additional observations from a re-analysis of the deposited data

How the results depend on the processing

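Over all genes edgeR called 0, with 705 at an unadjusted p under 0.05. The count of calls was 133 without a filter on low counts, 15 by DESeq2, 0 by limma-trend on log2(CPM + 0.5), 1 on log2(CPM + 1), and 0 to 3 with each library left out. Of the 10 members 2 (Per2 and Per3) were called without the filter and 0 in all other fits run. At an unadjusted p under 0.05 there were 5 members, 3 with libraries scaled by their totals and 3 in limma-trend with either pseudocount (Dbp and Hlf lost in each), 1 to 5 with each library left out (1 without control library 2, 3 without knockout library 2), and 2 without control 2 and knockout 3. The share of all tested genes at that threshold was counted only for the main fit, the fit without control 2 and knockout 3, and the fit with a sex term. The evening-phase median of -0.57 was -0.40 with totals alone, where the median of all tested genes was 0.17, and -0.25 without control 2 and knockout 3; the evening minus morning difference of -0.88 was -0.48 without those hearts. The sign of Per1 turned with totals alone (0.13), in limma-trend (0.12 with either pseudocount), and without control 2 and knockout 3 (0.092), and Per1 lay between -0.14 and 0.044 with each library left out. Nr1d1 turned without those hearts (-0.080), and Clock lay between -0.0063 and 0.26 with each library left out. The median of all tested genes was 0.14 and 0.13 in limma-trend, which used no TMM factor; in the other cases the cause was not tested. Of 160 values of members under alternatives, 151 kept their direction and side of the adjusted p threshold of 0.05. No member passed that threshold in the main fit, so this count does not register unadjusted p-values that rose above 0.05.

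Same-numbered hearts deviated from their group means with correlations of -0.113, 0.445 and 0.583. With 3 hearts per group such correlations cannot decide whether the numbers pair the hearts. Not every heart correlated best with its own number. Among the controls, knockout hearts 2 and 3 did so, while knockout heart 1 was closest to control heart 2 (0.572). The replicate block called 5 genes over all and 0 of the 10 members, with 5 members at an unadjusted p under 0.05. In that fit the edgeR unadjusted p was 0.000952 for Per2 (adjusted 0.189) and 0.000449 for Per3 (adjusted 0.128). The share of all tested genes at an unadjusted p under 0.05 was not counted for that fit. Its unadjusted p-values therefore cannot be set beside those of the main fit.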
